A study of Caenorhabditis elegans with 2 samples.

Results

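The neuronal and synaptic genes are 36 C. elegans genes that act in the release of synaptic vesicles, in the synthesis and transport of transmitters and neuropeptides, in axons, in channels and touch or sensory reception, and in the specification of neuron types. They were chosen by symbol from a list of genes known for these roles, at a time when earlier results of these data were known. All 36 symbols were found among the 19973 protein-coding genes annotated on chromosomes I to V and X. What was measured is where in the genome ELT-4 was found. ELT-4 is a short protein with a GATA-type zinc finger. Its gene neighbours elt-2, which encodes the leading intestinal GATA factor. DNA bound by tagged ELT-4 was precipitated and sequenced (ChIP-seq). There was 1 group of 2 biological replicates and no other condition, so no comparison between conditions could be made. Both replicates were whole hermaphrodite late embryos of strain OP111, genotype unc-119(ed3) III; wgIs111, taken 3 hours after the worms had been synchronized by bleaching eggs. In this line ELT-4 carries a C-terminal GFP and FLAG tag, and the precipitation was done with an antibody against GFP, although elt-4 is entered as the antibody in another label. The promoter and the copy number of the transgene are not given in the labels, nor is what else it carries. Because whole animals were used, neurons could not be told apart from other cells, and a region in a neuronal gene can come from any tissue. ChIP-seq measures no RNA, so the labelled stage was not checked against expressed markers.

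Neurons release transmitter when a calcium signal makes SNARE proteins fuse a vesicle with the cell membrane. Enzymes make the transmitter, transporters load it into vesicles, and kinesin motors carry vesicle components along the axon from the cell body. Neuropeptides travel in a separate class of dense-core vesicles and are cut from precursors inside them. GATA factors bind DNA at sites with a GATA core, and TGATAA is the form best known from intestinal genes of C. elegans.

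The deposited region lists gave, for each region, a signal whose scale is not stated and a q-value (the false discovery rate at which the caller would accept the region). There were 30000 regions in the pooled list of both replicates and 30000 in each replicate's own list. A q-value of at most 0.05 was given to 1279 pooled regions, with signals from 61.8 upwards. A further list of 342 peaks, the regions kept by an irreproducible discovery rate (IDR) filter, held signals from 78.7 upwards. Median signals were 30.5 in the pooled list, 16.4 in replicate 1 and 18.3 in replicate 2, and were not scaled to each other. Sequencing depth is unknown. A gene's window was its span plus 1000 bp upstream, and a region belonged to the gene when its summit lay in that window. Positions are 1-based on build ce11, which is the same assembly as WBcel235.

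Most neuronal genes held at least 1 region, about as many as their length would give. A pooled region lay in the window of 30 of the 36 genes (83.3%), against 60.0% of all protein-coding genes. The neuronal genes are long, with a median span of 5559.5 bp against 2027 bp for all genes. Among other genes with a span within 25% of each member's own, 77.9% held a region, which corresponds to 28.1 of 36. When those genes also had a GC content within 2 percentage points of the member's, the share was 82.0%, or 29.5 of 36. In the replicate lists alone, 34 members had a region in replicate 1, where 61.8% of all genes and 79.9% of genes of like length had one. In replicate 2 the number was 30, against 61.5% of all genes and 80.3% of genes of like length. The 30 members of replicate 2 were all among the 34 of replicate 1, and eat-4 and mec-3 had a region in neither list. Where a gene without a region counts as 0, the median of the strongest signal was 41.3 over the members, 25.7 over all genes and on average 34.8 over genes of like length. The number of neuronal genes with a region of any strength was therefore close to that of other genes of their length, and the design allows no test of the difference.

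Counted per length of DNA, the members held 126 distinct pooled regions in 350934 bp. That is 3.59 regions per 10 kb, with an exact Poisson 95% interval of 2.99 to 4.27 that covers the counting of regions only. All protein-coding genes together had 3.23 per 10 kb, which lies inside that interval. The density in the members was 4.07 per 10 kb in replicate 1 and 3.53 per 10 kb in replicate 2, against 3.23 over all protein-coding genes in each list. Averaged gene by gene, the pooled density was 4.10 per 10 kb in the members and 3.29 in genes of like length. In that average cha-1 and unc-17, whose windows overlap, both count. These differences were not tested. Of the 126 regions, 78 (61.9%) overlapped a region in both replicate lists, 25 a region in replicate 1 only, 19 in replicate 2 only and 4 in neither. Over the whole pooled list 55.9% overlapped a region in both.

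**Figure D1:**
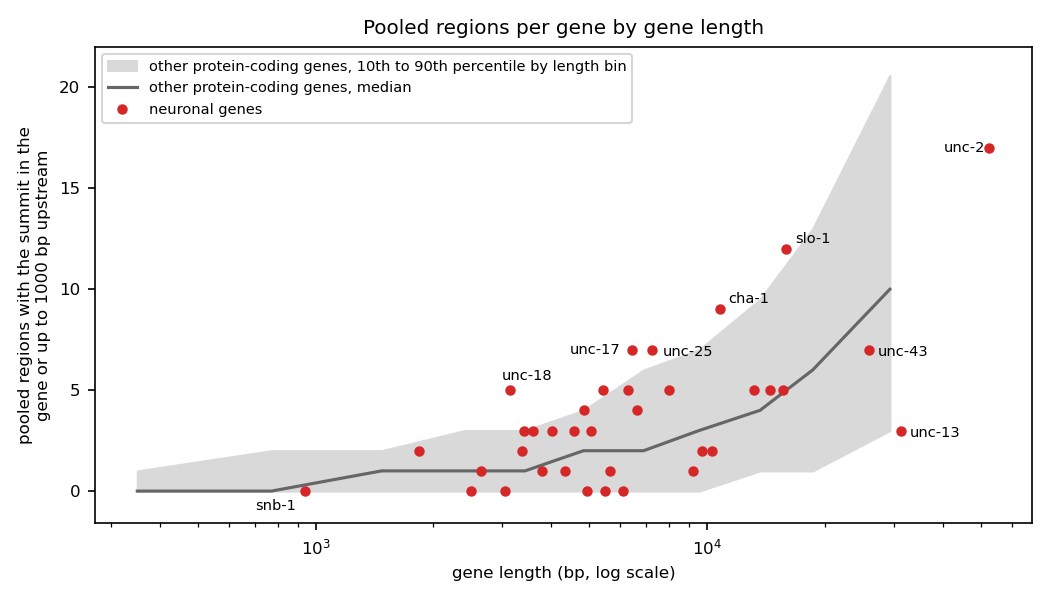
Number of pooled regions in the window of each neuronal gene (red points, y axis) against its length in bp (x axis, log scale), with the median (line) and the 10th to 90th percentile (grey band) of other protein-coding genes in bins of length. Most neuronal genes lie inside the band, slo-1 with 12 regions, cha-1 with 9, unc-17 and unc-25 with 7 each and unc-18 and unc-30 with 5 each lie above it, and unc-13 with 3 lies level with its lower edge. Regions of a gene can overlap each other, and they were counted in the same way for the other genes.

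Strong regions, those with a q-value of at most 0.05, were 7 of the members' 126. That is 5.56%, against 4.48% of the regions in the windows of all protein-coding genes. A region with a q-value of at most 0.05 lay in the window of 7 of the 36 genes (19.4%), against 5.67% of all genes and 11.6% of genes of like length, or 4.18 of 36. These genes were cha-1, unc-17, unc-104, cat-1, unc-31, unc-30 and unc-33. An IDR peak lay in 4 of the 36 (11.1%), namely cha-1, unc-17, cat-1 and unc-104, against 1.65% of all genes and 3.31% of genes of like length, or 1.19 of 36. Since cha-1 and unc-17 share their peak, these were 3 distinct peaks, and counting the locus once leaves 3 genes with an IDR peak and 6 with a q-value of at most 0.05. The count at a q-value of at most 0.05 differed between the replicates. In the list of replicate 1 (without replicate 2) it was 12 of 36, against 6.15% of all genes and 12.7% of genes of like length. In the list of replicate 2 (without replicate 1) it was 3 of 36, cha-1, unc-17 and unc-33, against 4.20% of all genes and 8.66% of genes of like length. Set beside genes of their length, the members thus had a higher share in replicate 1 and about the same share in replicate 2. The 5 members called in replicate 1 but neither in the pooled list nor in replicate 2 were egl-3, unc-25, unc-119, unc-2 and unc-43.

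The 7 genes shared 7 distinct regions of a q-value of at most 0.05, because cha-1 and unc-17 held a pair of them in common. All 7 regions overlapped a replicate 1 region with a q-value of at most 0.05, but only 1 of them, the strongest region of cha-1 and unc-17, overlapped such a region in replicate 2. In 6 of the 7 the overlapping region ranked higher in replicate 1 than in replicate 2. The GC content within 100 bp of the 7 summits ran from 45.3% to 62.2%, above the median of 43.3% over all pooled regions, and the median over all pooled regions with a q-value of at most 0.05 was 52.2%. A tRNA gene or a predicted tRNA pseudogene lay within 500 bp of the summit in 3 of the 7, compared with 61 of all 1279 pooled regions of that q-value (4.77%). Leaving out regions with an annotated tRNA gene within 500 bp, an alternative added after the data were seen, left 5 members with a q-value of at most 0.05 and 3 with an IDR peak. Keeping only regions in which at least 95% of the 36-mers occur once in the genome left 5 and 2 members.

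**Figure D2:**
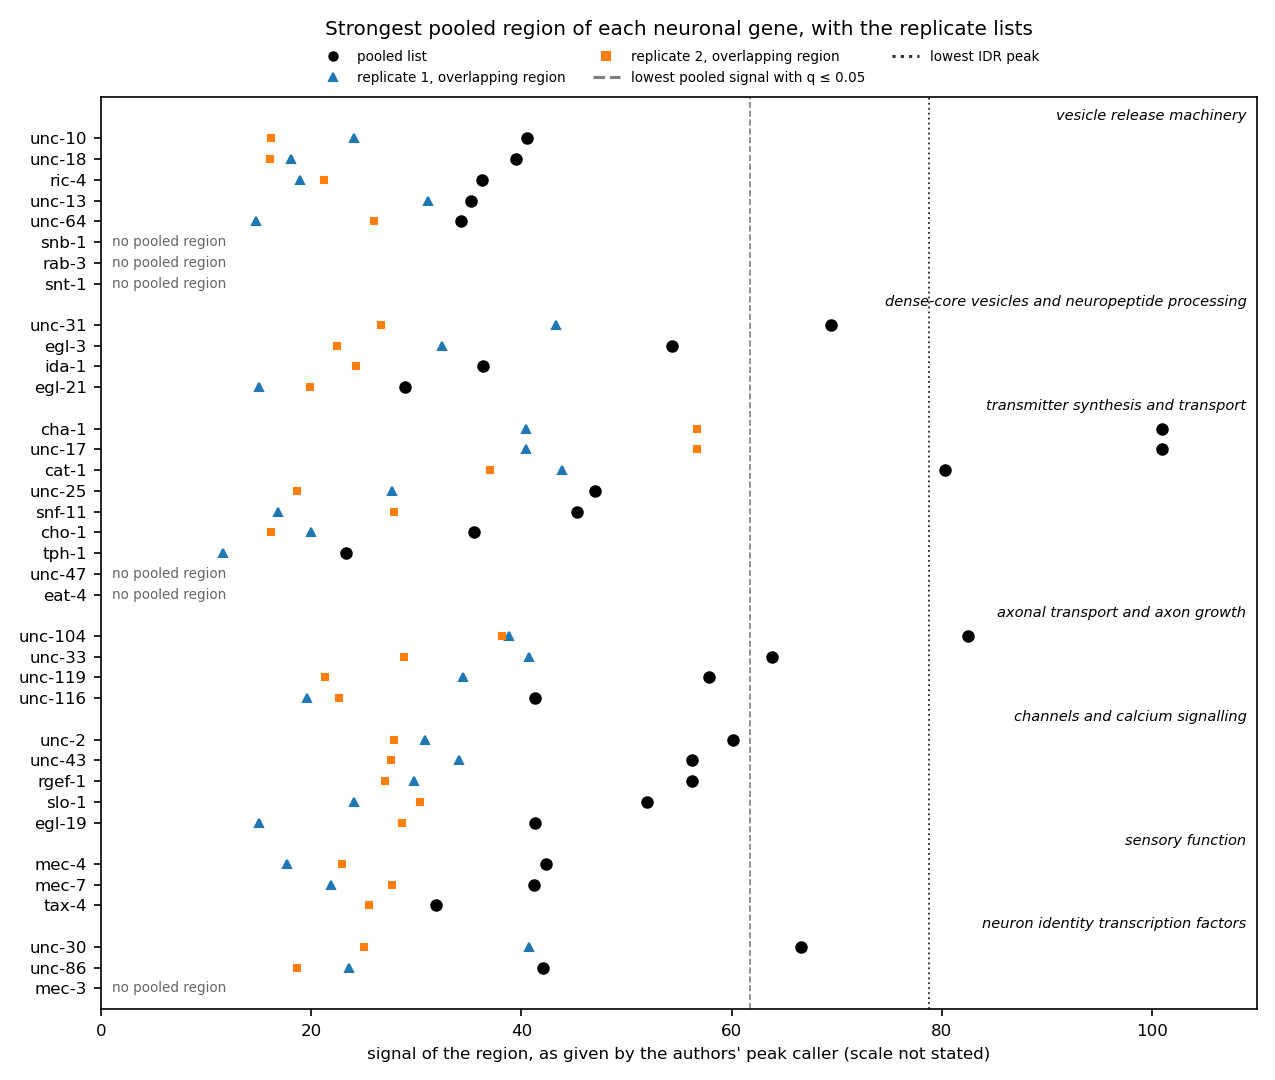
Signal of the strongest pooled region in each gene's window (black circles) and of the overlapping region in replicate 1 (blue triangles) and replicate 2 (orange squares), by role; a missing triangle or square means no overlapping region in that list. The dashed and dotted lines mark the lowest pooled signal with a q-value of at most 0.05 (61.8) and the lowest signal of an IDR peak (78.7), and only cha-1, unc-17, unc-104 and cat-1 pass the latter.

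The genes of transmitter synthesis and transport included the strongest region of the 36 genes. Of the 9 genes of this role 7 had a pooled region (6.74 would be the number at the rate of genes of like length). A q-value of at most 0.05 was found in 3 (0.749 at that rate), and the same 3 had an IDR peak (0.210 at that rate). Of these 3 genes, cha-1 and unc-17 were called through the same regions, so the IDR peaks were 2 distinct ones. The role held 5.27 regions per 10 kb (Poisson 95% interval 3.44 to 7.72), against 3.23 for all genes. Some of these regions overlap each other and share the same replicate regions, which the interval does not take into account. No difference from all genes is therefore read from it. The 3 genes were cha-1, which encodes choline acetyltransferase, the enzyme that makes acetylcholine, unc-17, which encodes the transporter that loads acetylcholine into vesicles, and cat-1, which encodes the vesicular transporter of monoamines. The first 2 of these form the cholinergic locus, in which both start with a shared first exon and the rest of unc-17 lies inside the long first intron of cha-1.

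The strongest region of the 36 genes lay in this locus, at IV:3618653-3619122, with its summit in coding sequence of unc-17, which is an intron of cha-1. Its signal was 100.9 in the pooled list, rank 65 of 30000, with a q-value of 0.00234. The overlapping region had a signal of 40.4 in replicate 1, rank 359, and of 56.7 in replicate 2, rank 76, which gives 48.5 ± 11.5 (mean ± SD, n = 2 replicates). It was thus near the top of both lists, and of the 7 regions with a q-value of at most 0.05 in the 36 genes it was the only one that ranked higher in replicate 2. Among the 958 genes within 25% of the length of cha-1, 0.939% had a region at least as strong, and for unc-17 the share was 0.790% of 1898.

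A second region of the locus lay at IV:3621709-3622178, in an intron of both genes. Its pooled signal was 74.6, rank 465, with a q-value of 0.0161. The overlapping region had a signal of 39.5 in replicate 1, rank 405, and of 29.1 in replicate 2, rank 3320 (34.3 ± 7.39, n = 2), so the replicates ranked it less alike than the first. The locus had 9 pooled regions in the window of cha-1, where genes of like length had a median of 3 and 5.64% of them had at least 9. The region next in strength, IV:3623198-3623667, had a signal of 58.8 and a q-value of 0.0729, with 29.5 in replicate 1 and 32.3 in replicate 2. Some of the 9 overlap each other by part of their length and share the same replicate regions, so they are not 9 separate sites.

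The sequences within 100 bp of the summits of the first 2 regions are shown on the strand of the genes (minus), to set a strong region without a GATA core beside one with it. Capitals mark GATA on the strand shown. The first, IV:3618788-3618988, has a GC content of 55.2% and no GATA on either strand, and the second, IV:3621844-3622044, has 49.3% and 1 GATA, which is part of a TGATAA.
unc-17 region 1: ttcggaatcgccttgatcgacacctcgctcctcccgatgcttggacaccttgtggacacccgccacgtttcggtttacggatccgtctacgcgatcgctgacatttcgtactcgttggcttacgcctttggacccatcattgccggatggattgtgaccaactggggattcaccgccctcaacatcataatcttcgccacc
unc-17 region 2: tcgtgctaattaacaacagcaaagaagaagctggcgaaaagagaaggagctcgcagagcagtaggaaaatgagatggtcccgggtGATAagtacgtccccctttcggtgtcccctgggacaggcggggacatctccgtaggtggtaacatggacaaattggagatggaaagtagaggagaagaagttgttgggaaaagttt

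**Figure D3:**
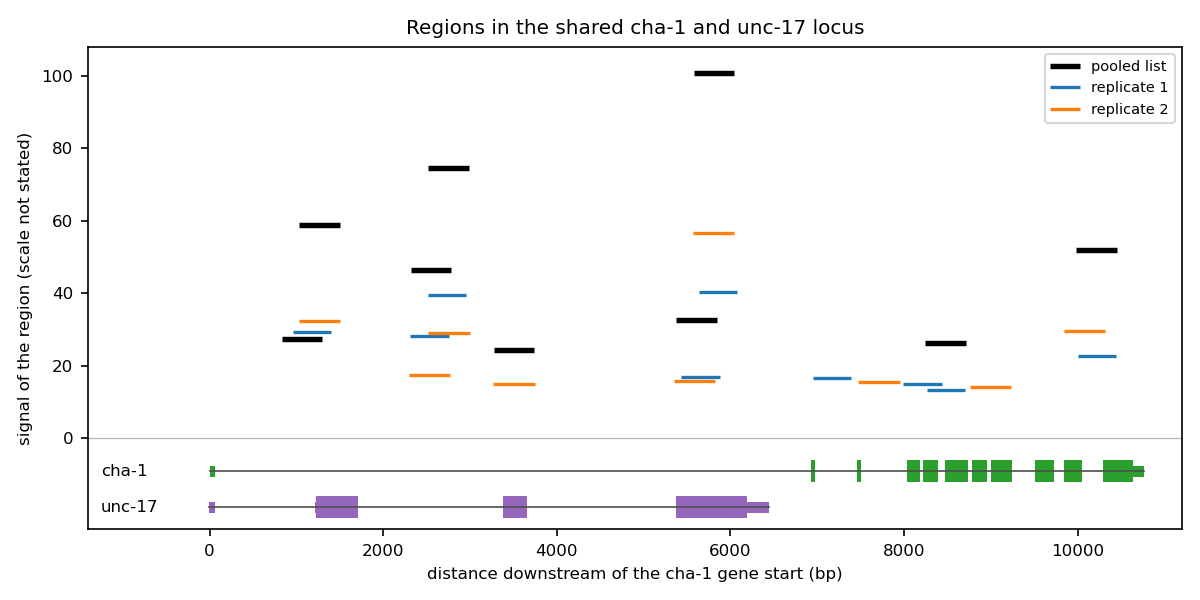
Regions of the pooled list (black), replicate 1 (blue) and replicate 2 (orange) in the shared cha-1 and unc-17 locus, drawn to scale at their signal (y axis, scale not stated) against the distance in bp downstream of the cha-1 gene start; tall boxes are coding exons and low boxes are untranslated parts of exons. The strongest pooled region (100.9) sits over the last coding exon of unc-17, and the second (74.6) over an intron of both genes.

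The other gene of this role with an IDR peak, cat-1, had its strongest region at X:5707792-5708261, in an intron. The pooled signal was 80.3, rank 290, with a q-value of 0.0121. The overlapping region had a signal of 43.8 in replicate 1, rank 215, and of 37.0 in replicate 2, rank 1100 (40.4 ± 4.82, n = 2). Both replicates held it among their stronger regions, and 2.18% of genes of like length had a region at least as strong. The summit lay 1 bp outside a tRNA gene, E03E2.t1 (X:5708028-5708109, tRNA-Ser), which is embedded in the intron on the opposite strand, and only 62.7% of the 36-mers in the summit window occur once in the genome. The part of the tRNA gene in the signal was not tested. The window X:5707927-5708127 is shown on the strand of cat-1 (minus) because the tRNA gene, in capitals and here in reverse complement, fills the flank of the summit.
cat-1: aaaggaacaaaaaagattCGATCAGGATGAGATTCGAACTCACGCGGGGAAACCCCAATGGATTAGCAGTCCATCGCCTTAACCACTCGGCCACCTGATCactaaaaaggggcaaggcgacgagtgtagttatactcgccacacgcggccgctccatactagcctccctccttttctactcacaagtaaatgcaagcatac

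The other 6 genes of this role had weaker regions or none. The enzyme that makes GABA, glutamic acid decarboxylase, is encoded by unc-25. This gene had 7 regions, some overlapping each other, where genes of like length had a median of 2. Their strongest signal was 47.01, with 27.7 in replicate 1 and 18.6 in replicate 2. The GABA reuptake transporter gene snf-11 had a strongest signal of 45.3, 626 bp upstream of the gene, with 16.9 and 27.9 in the replicates. For cho-1, the choline transporter gene, the strongest pooled signal was 35.5. The serotonin synthesis gene tph-1, which encodes tryptophan hydroxylase, had 1 region of 23.3, near the lowest signal of the list (21.3), with 11.6 in replicate 1 and none in replicate 2. The vesicular GABA transporter gene unc-47 had no pooled region, though each replicate list had 1, of 24.5 in replicate 1 and 14.5 in replicate 2. The vesicular glutamate transporter gene eat-4 had no region in any list, while 76.8% of genes of its length had a pooled one.

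Genes of the vesicle release machinery had no strong region. Of the 8 genes 5 had a pooled region (6.22 at the rate of genes of like length), and 0 had a q-value of at most 0.05 (0.928 at that rate) in the pooled list or in either replicate list. The role had 2.28 regions per 10 kb (Poisson 95% interval 1.35 to 3.61, which includes the 3.23 of all genes). The highest signal was 40.5, in coding sequence of unc-10, which encodes the active zone protein RIM, with 24.0 in replicate 1 and 16.1 in replicate 2. The syntaxin partner gene unc-18 reached 39.4 with 18.04 and 16.1 in the replicates. Its 5 regions in a window of 4142 bp gave 12.1 per 10 kb, and 1.97% of genes of like length had at least 5. Some of the 5 overlap each other and share the same replicate regions, so they are not 5 separate sites. In ric-4, the gene of the SNARE protein of the SNAP family, the pooled signal was 36.3 with 18.9 and 21.2 in the replicates. The syntaxin gene unc-64 had 34.2, with 14.8 and 26.01.

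The vesicle priming gene unc-13 was the second longest member and had few regions. It had 3 in a window of 32332 bp, where genes of like length had a median of 9.5 and 91.8% had at least 3. Its strongest signal was 35.2, with 31.1 in replicate 1 and no overlapping region in replicate 2. The remaining 3 genes of the role had no pooled region. The synaptobrevin gene snb-1 is the shortest member, and 49.4% of genes of like length had a pooled region. It had 3 regions in replicate 1, of up to 12.9. The vesicle GTPase gene rab-3 had 1 region of 13.3 in replicate 1, and the calcium sensor gene snt-1, which encodes synaptotagmin, 1 of 11.5. None of the 3 had a region in replicate 2.

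All 4 genes of dense-core vesicles and neuropeptide processing had a pooled region (3.20 at the rate of genes of like length). The strongest was in unc-31, which encodes CAPS, the factor that primes dense-core vesicles for release. It lay in an intron at IV:12780921-12781390, 190 bp downstream of the nearest annotated start site of the gene. The pooled signal was 69.5, rank 721, with a q-value of 0.0146, and the overlapping region had 43.3 in replicate 1, rank 228, and 26.6 in replicate 2, rank 4711 (34.9 ± 11.8, n = 2). Replicate 1 alone ranked it high, and 11.9% of genes of like length had a region at least as strong. The window IV:12781056-12781256 on the strand of the gene (plus) is shown because it has the highest GC content of the 7 strong windows, 62.2%, and its only GATA is in capitals.
unc-31: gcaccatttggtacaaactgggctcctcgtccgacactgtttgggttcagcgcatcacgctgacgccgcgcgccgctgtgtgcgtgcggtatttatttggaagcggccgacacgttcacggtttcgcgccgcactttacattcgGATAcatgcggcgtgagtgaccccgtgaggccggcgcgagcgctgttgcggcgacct
The proprotein convertase gene egl-3 had a region 858 bp upstream with a pooled signal of 54.3 and a q-value of 0.115, and 32.5 and 22.4 in the replicates. Signals were lower in ida-1, which encodes a membrane protein of dense-core vesicles (36.4, with 24.3 in replicate 2 and no overlapping region in replicate 1), and in the carboxypeptidase gene egl-21 (28.9, with 15.0 and 19.9).

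Among the 4 genes of axonal transport and axon growth, all had a pooled region (3.30 at the rate of genes of like length). A q-value of at most 0.05 was found in 2 (0.522 at that rate). The motor gene unc-104 encodes the kinesin that carries synaptic vesicle precursors. Its strongest region lay in an intron at II:7001316-7001785. The pooled signal was 82.5, rank 241, with a q-value of 0.00624. The overlapping region had 38.8 in replicate 1, rank 451, and 38.1 in replicate 2, rank 908 (38.4 ± 0.479, n = 2), so this was the region with the closest signals among the strong ones, and 3.50% of genes of like length had one at least as strong. Its q-value in replicate 2 was 0.0512, just above the threshold. A predicted tRNA pseudogene, C52E12.t1 (II:7001627-7001698), lay 76 bp from the summit, and only 54.8% of the 36-mers in the window were found once in the genome. The part of this repeated sequence in the signal was not tested. The window II:7001451-7001651 is shown on the plus strand, with the bases of the pseudogene that fall inside it in capitals.
unc-104: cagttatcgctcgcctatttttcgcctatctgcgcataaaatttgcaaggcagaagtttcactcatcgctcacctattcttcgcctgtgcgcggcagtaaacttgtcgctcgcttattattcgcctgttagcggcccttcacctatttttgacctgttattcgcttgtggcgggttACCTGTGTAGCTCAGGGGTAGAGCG

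The second strong gene of this role was unc-33, whose product binds microtubules in growing axons. Its strongest region lay in coding sequence at IV:3524491-3524960, with a pooled signal of 63.9, rank 1105, and a q-value of 0.0385. The overlapping region had 40.7 in replicate 1, rank 346, and 28.8 in replicate 2, rank 3452 (34.8 ± 8.37, n = 2). A tRNA-Arg gene, M57.t1, lay 93 bp from the summit, but every 36-mer of the window was unique. Another region of unc-33, at IV:3523266-3523735, had a pooled signal of 58.7 and a q-value of 0.0740, and here the order of the replicates was turned, with 26.2 in replicate 1 and 40.3, rank 673, in replicate 2. The strain is mutant in unc-119, whose product carries lipid-modified proteins to cilia and membranes. The strongest unc-119 region, in an intron, had a pooled signal of 57.8 and a q-value of 0.0845, with 34.5 in replicate 1, rank 898, and 21.3 in replicate 2, rank 9858 (27.9 ± 9.27, n = 2). Whether copies of unc-119 outside the native locus add to this signal was not tested. The kinesin heavy chain gene unc-116 had 41.3 pooled, with 19.6 and 22.6 in the replicates.

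The 5 genes of channels and calcium signalling are the longest as a group, with a median span of 15952 bp. All had pooled regions (4.46 at the rate of genes of like length), but 0 had a q-value of at most 0.05 in the pooled list (1.17 at that rate). The calcium channel gene unc-2, the longest member at 52607 bp, had 17 regions, where the 16 genes of like length had a median of 13. Its strongest signal was 60.1, rank 1470, with a q-value of 0.0657, in an intron, with 30.8 and 27.9 in the replicates (29.4 ± 2.06, n = 2). Of those 16 genes 56.3% had a region at least as strong, so this signal was ordinary for a gene of its length. The calmodulin-dependent kinase gene unc-43 reached 56.2, rank 2013, in an intron, with a q-value of 0.0986 and with 34.0 and 27.6 in the replicates (30.8 ± 4.53, n = 2). For rgef-1, a nucleotide exchange factor gene whose promoter is widely used to label neurons, the only region lay 214 bp upstream of the nearest start site, with 56.2 pooled and 29.7 and 27.0 in the replicates. The potassium channel gene slo-1 had 12 regions in 16952 bp, where genes of like length had a median of 5 and 5.17% had at least 12. Some of the 12 overlap each other and share the same replicate regions. The strongest had 51.9 pooled, 24.0 in replicate 1 and 30.3 in replicate 2. The calcium channel gene egl-19, which also acts in muscle, reached 41.3, with 15.0 and 28.6.

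The 3 genes of sensory function all had a pooled region (2.00 at the rate of genes of like length). The share of genes of like length with a region at least as strong was 23.0% for mec-4, 15.4% for mec-7 and 48.1% for tax-4. The touch channel gene mec-4 had 42.4 pooled with 17.7 and 23.0 in the replicates. The touch neuron tubulin gene mec-7 had 41.2 with 21.9 and 27.7, and the sensory cyclic nucleotide-gated channel gene tax-4 had 31.8 with 25.5 in replicate 2 and no overlapping region in replicate 1. No q-value of at most 0.05 was found in any of them (0.155 would be the number of genes at the rate of genes of like length).

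The 3 neuron identity genes, which encode homeodomain transcription factors, differed from each other. The gene unc-30 specifies GABA motor neurons, and its strongest region, IV:13118695-13119164, had its summit 47 bp upstream of the nearest start site. Of the 7 regions with a q-value of at most 0.05 in the 36 genes, this was the only one upstream of its gene. Its pooled signal was 66.6, rank 884, with a q-value of 0.0243, and the overlapping region had 40.7 in replicate 1, rank 343, and 24.996 in replicate 2, rank 5958 (32.9 ± 11.1, n = 2). The replicates thus ranked it very differently, and 6.01% of genes of like length had a region at least as strong. The 150 bases before its first start site, IV:13118827-13118976 on the plus strand, are shown because they hold the summit. They contain no GATA on either strand.
unc-30: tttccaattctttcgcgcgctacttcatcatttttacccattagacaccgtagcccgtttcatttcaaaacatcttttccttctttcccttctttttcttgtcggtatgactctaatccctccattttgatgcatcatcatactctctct
The gene unc-86, which specifies touch and other sensory neurons, had a region 130 bp upstream at III:8216231-8216700, with a pooled signal of 42.01, rank 6038, a q-value of 0.347, and 23.6 and 18.7 in the replicates (21.1 ± 3.50, n = 2). A non-coding RNA gene, C30A5.11, covers that summit. The LIM homeobox gene mec-3, which acts with unc-86 in touch neurons, had no region in any list, while 66.6% of genes of its length had a pooled one.

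By part of the gene, more of the members' regions lay in introns than over all genes, and more of their sequence is intron, while the number per 10 kb in each part was similar. A region in a gene's window was counted once for each gene, 133 in all. Introns made up 61.2% of the members' windows, against 40.97% over all genes. They held 50.4% of the members' regions (67), against 32.5% over all genes. Per 10 kb of intron that is 3.06 (Poisson 95% interval 2.37 to 3.88) against 2.59 in all genes. Coding sequence held 47 regions (35.3%, against 42.2% over all genes), or 5.69 per 10 kb (Poisson 95% interval 4.18 to 7.56), against 4.70 in all genes. The 1000 bp upstream held 14 (10.5%, against 20.7% over all genes), or 3.89 per 10 kb (2.13 to 6.52), against 2.85 in all genes. UTRs and other exons held 5, or 2.44 per 10 kb, against 2.43. The values of all genes lay inside the members' counting intervals in all 4 parts. Of the 9 pairs of a gene and a region with a q-value of at most 0.05, 6 were in introns, 2 in coding sequence and 1 upstream. Of the 1267 such pairs over all genes, 361 (28.5%) were in introns, 574 (45.3%) in coding sequence and 282 (22.3%) upstream. The 9 pairs include the regions of cha-1 and unc-17 once for each gene, and the difference in share was not tested.

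**Figure D4:**
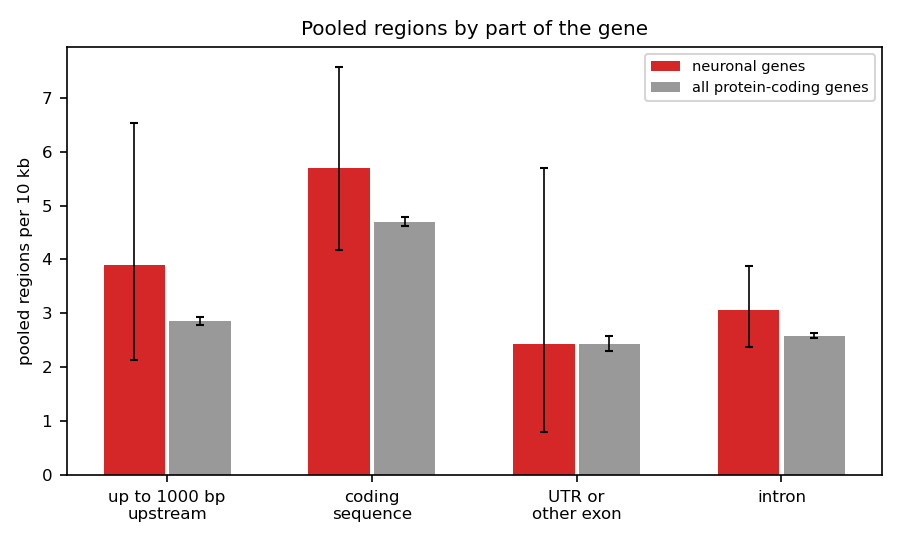
Pooled regions per 10 kb (y axis) in 4 parts of the gene windows, for the neuronal genes (red) and all protein-coding genes (grey). Error bars are exact Poisson 95% intervals of the count of regions, and in each part the red interval includes the grey bar.

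GATA sequences were about as frequent in these regions as elsewhere in the pooled list. TGATAA, searched on both strands within 100 bp of the summit, was present in 12 of the 126 distinct regions (9.52%), compared with 12.5% of all 30000 pooled regions and 6.41% of those with a q-value of at most 0.05. The shorter GATA, which every TGATAA contains, was present in 82 (65.1%), compared with 65.8% of all. Of the 7 strong regions only the second one of cha-1 and unc-17 had a TGATAA. Among the weaker ones, TGATAA occurred in the strongest regions of unc-2, slo-1, egl-19, mec-7 and tax-4. The median GC content was 43.8%, compared with 43.3%. At least 95% of the 36-mers were unique in 94.4% of the 126 regions, compared with 90.8% of all pooled regions.

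Across the 78 regions found in both replicate lists, signals in replicate 1 and replicate 2 had a Spearman rho of 0.528 and a Pearson r of 0.579. These describe regions of the same pair of libraries, which are no independent samples, and regions missing from either list are left out. Some of the 78 share the same replicate regions, so the same pair of signals can enter more than once. Among the 1000 strongest regions of each replicate, 14 of the members' regions overlapped one of replicate 1, 5 one of replicate 2 and 4 one of both.

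**Figure D5:**
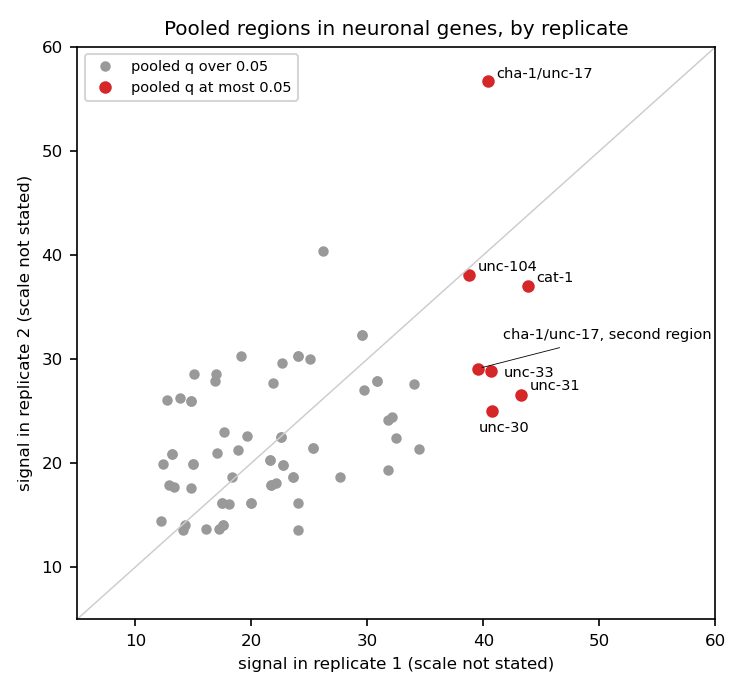
Signal of the overlapping region in replicate 1 (x axis) and replicate 2 (y axis) for the 78 pooled regions of neuronal genes found in both lists; red points have a pooled q-value of at most 0.05, points can coincide where pooled regions share a replicate region, and the diagonal marks equal signal. The red points lie between 38.8 and 43.8 in replicate 1 and spread from 24.996 to 56.7 in replicate 2.

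A wider list of 76 other neuronal genes showed a similar share of genes with any region and a lower share of strong ones than the 36 members. Of these, 61 (80.3%) had a pooled region, against 77.7% of genes of like length, and they held 3.68 regions per 10 kb. A q-value of at most 0.05 was found in 10 (13.2%, against 11.3% of genes of like length) and an IDR peak in 4 (5.26%, against 3.45%). Both shares were thus nearer to those of genes of like length than the members' were, though the difference between the lists was not tested. The 4 with an IDR peak were unc-41 (105.5 pooled, rank 44, with 40.5 and 59.4 in the replicates), which encodes stonin, an adaptor of vesicle recycling, nsf-1 (95.8, rank 96, with 46.0 and 50.5), which encodes the ATPase that takes SNARE complexes apart, dgk-1 (91.7, rank 132, with 37.9 and 52.5), a diacylglycerol kinase gene, and unc-51 (79.6, rank 312, with 29.6 and 46.9), a kinase gene of axon growth. All 4 had the higher signal in replicate 2, whose list also has the higher median signal (18.3 against 16.4). Their ranks in the replicate lists were not compared. The other 6 were goa-1 and egl-30, which encode G protein alpha subunits, unc-42 and unc-3, which specify motor circuit neurons, elks-1, an active zone gene, and dyn-1, the dynamin gene, with pooled signals from 62.6 to 66.1. By role, 4 of 14 further genes of vesicle release had a q-value of at most 0.05, where 1.66 would be the number at the rate of genes of like length. For channels and signalling it was 3 of 15 (2.68 at that rate) and for neuron identity 2 of 6 (0.456). For axonal transport and axon growth it was 1 of 7 (1.003). Transmitter synthesis and transport had 0 of 10 (0.717), and dense-core vesicles and neuropeptide processing 0 of 7 (0.4002). Sensory function had 0 of 8 (0.816) and transmitter receptors 0 of 9 (0.885). These counts are small, and no difference between roles or lists was tested.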

How the data were processed

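Region lists in narrowPeak layout were deposited for each replicate and for the replicates pooled. The signal of a region is the output of the authors' peak caller, and its q-value was deposited as −log10 q. The IDR peaks were the 342 pooled regions of highest signal. Neither the aligner, the caller and their versions nor the cutoff of the IDR filter is given in the sources used here. The pooled and IDR lists were derived by the authors from the alignments of both replicates and a control. No control library was analysed here. No read counts were used, so depth is unknown and limits precision to an unknown degree. The lists on build ce11 were used and those on ce10 were not.

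Every region ended inside the WBcel235 chromosome of its name, and sequences were read from that RefSeq assembly. Genes came from Ensembl release 115. The gene window, the overlap of at least 1 bp between lists, the summit window of 201 bp, the 36-mers counted on both strands and the distance of 500 bp to a tRNA gene were set as described. All genes of like length were used and none drawn at random. The scripts ran in Python 3.11.15 with pandas 2.3.3, NumPy 2.4.6, SciPy 1.17.1 and matplotlib 3.10.9, and were tested on simulated data. No test was run on the members, because there is 1 group, and because the members and lists were chosen with earlier results of these data known. An SD over 2 replicate lists can include a difference in scale.

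Full values are given for members with a q-value of at most 0.05 or an IDR peak, for the 10 members of highest signal and for the neuron identity genes. Of the wider list, 76 of 77 symbols were found in the annotation, and those with a q-value of at most 0.05 are named. The alternatives were other windows, overlap in place of the summit, other thresholds, each replicate alone, unique sequence, regions away from tRNA genes, the cholinergic locus counted once, and other tolerances of length and GC content.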

Additional observations from a re-analysis of the deposited data

How the results depend on the processing

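The number of members with a pooled region of any strength (30) stayed within 1.5 times under every window, overlap, replicate and unique-sequence alternative run. It ran from 21 with a promoter window (1000 bp upstream to 200 bp downstream of any start site) to 34 without replicate 2. Without replicate 1 it was 30. Of genes of like length, 43.9% had a region in the promoter window, 79.9% without replicate 2 and 80.3% without replicate 1. In the promoter window the members' share was thus higher than that of genes of like length, and the difference was not tested. Genes with more annotated start sites can have more sequence in the promoter window, and genes of like length were not matched for start sites. The number of regions per 10 kb stayed inside its counting interval, at 3.39 to 4.15 (3.53 without replicate 1 and 4.07 without replicate 2). The number of members with a q-value of at most 0.05 (7) was 2 with the promoter window, 3 at a q-value of at most 0.01 and 13 among the strongest 3000 pooled regions. These thresholds and windows hold fewer or more regions by construction, and 3.72%, 2.71% and 22.4% of genes of like length passed them. Without one replicate or the other it was 3 to 12; the cause was not tested. It was 5 to 7 under the other alternatives. The number with an IDR peak (4) was 0 with the promoter window, where 1.00% of genes of like length had one, 2 with at least 95% unique 36-mers, which removes the repeated windows of cat-1 and unc-104, and 3 or 4 otherwise. The share of genes of like length with a pooled region (77.9%) was 78.7% within 10% in length, 74.7% within 50%, and 82.0% within 25% and 2 points of GC content. The fewest genes of like length for any member were 16 at 25%, 5 at 10%, 87 at 50% and 8 with GC content. Leaving out regions near tRNA genes, counting the cholinergic locus once, and unique sequence for IDR peaks and for regions of any strength were chosen after seeing the data. No paired analysis was possible because there is only 1 group.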
